A study of Mus musculus with 2 samples.

Results

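The genes described here encode the isoforms that bring glucose into a cell and commit it to glycolysis. They are 3 glucose transporters (Slc2a1, Slc2a3 and Slc2a6), 3 hexokinases (Hk1, Hk2 and Hk3), 2 phosphofructokinase subunits (Pfkl and Pfkp), the bifunctional regulator Pfkfb3 and the pyruvate kinase gene Pkm. These 10 genes were taken by symbol out of 19938 genes that had a probe set naming them alone. For a gene with more than 1 such probe set, the set with the highest mean over both arrays was used.

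Total RNA came from cells of skin scar tissue of TCF reporter mice, 1 week after wounding, and was hybridised to Affymetrix mouse gene arrays. A group labelled B-Gal negative and a group labelled B-Gal positive were compared, both from healing skin of this genotype and both at this time. B-Gal is read here as beta-galactosidase and TCF as the transcription factors that pair with beta-catenin. The promoter of the reporter, the strain, sex and age of the mice, the number of animals per array and the way cells were assigned to the groups were not stated in the labels or the design text. Each group had 1 array. The differences below therefore come without replicate check, error or test, and precision is limited by having 2 arrays in all.

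Glucose crosses the membrane through carriers of the SLC2A family and is trapped inside the cell when a hexokinase phosphorylates it. Phosphofructokinase then carries out the committed step of glycolysis, and its activity is raised by fructose 2,6-bisphosphate, which Pfkfb3 makes. Pyruvate kinase closes the pathway, and lactate dehydrogenase and lactate carriers dispose of the product. Each step has several isoforms that differ in tissue, substrate affinity and regulation. In wounds, leukocytes and fibroblasts both rely on glycolysis, and several of these genes are known targets of hypoxia-inducible factors.

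Promoter sequences of the isoform genes with the largest differences toward the B-Gal positive array (Hk3, Pfkfb3 and Slc2a6) are shown with that of Hk2, whose values were equal to 2 decimals in both arrays. The windows hold the 250 bases before the gene's start, from RefSeq on GRCm38.p6, read 5′ to 3′ on the gene's strand. Capitals mark matches, on either strand, to any of 5 short motifs. These were the hypoxia response core as ACGTG or GCGTG, the ETS core GAGGAA bound by the myeloid factor encoded by Spi1, the activator protein site TGANTCA, and the TCF site CTTTGAT. Hk3 lies at chr13:55021386-55021635 on the minus strand, and Hk2 at chr6:82774455-82774704, minus strand. The outermost of the starts listed for Pfkfb3 lies at chr2:11553930-11554179, minus strand, and Slc2a6 at chr2:27027999-27028248, minus strand.
Hk3: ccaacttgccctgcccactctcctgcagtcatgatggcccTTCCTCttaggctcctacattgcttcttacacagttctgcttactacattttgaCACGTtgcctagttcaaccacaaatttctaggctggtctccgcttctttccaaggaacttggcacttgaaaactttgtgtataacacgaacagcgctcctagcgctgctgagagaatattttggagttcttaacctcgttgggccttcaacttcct
Hk2: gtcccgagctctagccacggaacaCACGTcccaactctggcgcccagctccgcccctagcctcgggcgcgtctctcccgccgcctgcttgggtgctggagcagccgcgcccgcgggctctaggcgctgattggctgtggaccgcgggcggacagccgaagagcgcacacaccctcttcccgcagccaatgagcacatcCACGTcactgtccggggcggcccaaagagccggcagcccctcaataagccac
Pfkfb3: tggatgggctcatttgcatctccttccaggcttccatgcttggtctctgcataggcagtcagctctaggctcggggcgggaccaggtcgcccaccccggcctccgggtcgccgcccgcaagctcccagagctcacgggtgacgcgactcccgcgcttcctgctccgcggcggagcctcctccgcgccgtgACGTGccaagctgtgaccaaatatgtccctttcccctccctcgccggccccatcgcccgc
Slc2a6: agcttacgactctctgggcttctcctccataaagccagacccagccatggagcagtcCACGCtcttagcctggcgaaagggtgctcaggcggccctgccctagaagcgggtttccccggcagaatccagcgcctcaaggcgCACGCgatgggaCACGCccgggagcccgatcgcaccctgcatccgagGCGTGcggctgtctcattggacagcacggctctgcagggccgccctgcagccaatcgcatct

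RefSeq promoter windows were matched for 9 of the 10 genes, 12 windows in all because Hk1, Pfkfb3 and Pkm have more than 1 start. Slc2a3 was the gene not matched. Of the 12 windows, 10 held a hypoxia response core, against 38.6% of 32851 promoter windows of the same length, and each of the 9 genes had it in at least 1 window. The core contains CG, and the GC content of the 12 windows had a median of 62.8% (47.2% to 69.6%), against a median of 52.4% over all windows. Slc2a6 held 4 matches, all in the GCGTG form, Hk2 held 2 in the ACGTG form, and Hk3 and the outermost Pfkfb3 window held 1 each in the ACGTG form. The second Pfkfb3 window held a palindromic CACGTG, which counts as a match on both strands and is also an E-box, a form found in 6.02% of all windows. The ETS core was in 3 of the 12 windows (Hk3, one start of Hk1 and the second start of Pfkfb3), against 23.3% of all windows. No match to the activator protein site or the TCF site was found in the 12 windows, and these were in 6.75% and 3.21% of all windows. A match is a description of the letters and was not tested for binding.

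Across the 10 genes, Hk3 and Pfkfb3 were at least 2-fold higher in the B-Gal positive array, Slc2a3 was at least 2-fold lower, and the other 7 differed by less. Values are log2 expression, and a difference is the B-Gal positive value minus the B-Gal negative value. All 10 genes lay above 5.59 in both arrays, the floor set at the 95th percentile of olfactory and vomeronasal receptor genes. Among the 13784 genes above this floor in at least 1 array, 9.92% were at least 2-fold higher and 12.7% at least 2-fold lower, together 22.6%. The isoform genes gave 2 of 10 higher and 1 of 10 lower, a share near that background. Their median difference was 0.24 and that of all expressed genes 0.06. Differences were above 0 for 9 of the 10 genes, and 7 of those 9 were under 2-fold. The smallest of the 9 was that of Hk2, 0.0011, and 53.9% of expressed genes had a difference as high or higher.

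**Figure D1:**
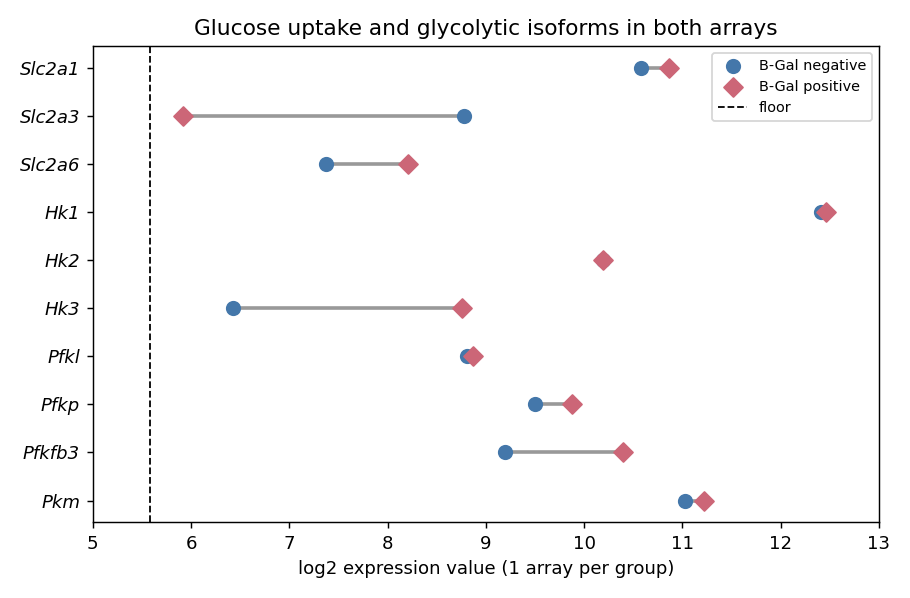
Log2 expression value (x axis) of each of the 10 isoform genes (y axis) in the B-Gal negative array (circles) and the B-Gal positive array (diamonds), 1 array per group, with the floor of 5.59 as a dashed line. The longest distances are those of Slc2a3, from 8.77 down to 5.92, and Hk3, from 6.43 up to 8.76, while the symbols of Hk2 coincide at 10.19.

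The glucose transporters went in different directions. Slc2a3 encodes GLUT3, a high-affinity carrier of neurons, platelets and leukocytes. Its log2 value was 8.77 in the B-Gal negative array and 5.92 in the B-Gal positive array, a 7.24-fold lower value. The B-Gal positive value lay only 0.33 above the floor, so this array held little signal over background for Slc2a3. Only 2.82% of expressed genes had a difference as low or lower. With the floor placed at the 99th percentile of receptor genes (6.27), its B-Gal positive value lies under the floor and Slc2a3 was at least 5.67-fold lower.

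Slc2a1 encodes GLUT1, the carrier of basal glucose uptake in most cells. It had a log2 value of 10.58 in B-Gal negative and 10.86 in B-Gal positive cells, a 1.22-fold higher value. A difference of this size or more in either direction was found for 63.6% of expressed genes. Slc2a6 encodes GLUT6, a carrier of intracellular membranes that is known from leukocytes and spleen. Its log2 values were 7.37 and 8.21, a 1.78-fold higher value in B-Gal positive cells that stayed under the 2-fold threshold. For Slc2a6, 12.4% of expressed genes had a difference as high or higher.

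Of the remaining members of the SLC2A family, all 9 had a probe set and 8 were expressed. Slc2a9, a carrier known for urate transport, was 3.73-fold higher in B-Gal positive cells, with log2 values of 6.03 and 7.93. Slc2a10, whose loss causes arterial tortuosity, had values of 8.54 and 5.04, and against the floor it was at least 7.75-fold lower. Slc2a13, a proton-coupled myo-inositol carrier, was 4.64-fold lower, from 8.26 to 6.04. Over the whole family, 1 of 11 expressed carriers was at least 2-fold higher and 3 were at least 2-fold lower. That is 36.4% of the 11, against 22.6% of all expressed genes.

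The other carriers lay close to the floor in both arrays, except Slc2a8. This intracellular carrier had values of 6.66 and 7.31, a difference of 0.65. The insulin-responsive carrier Slc2a4 had values of 6.35 and 5.74, a difference of -0.60. Slc2a2, the carrier of liver and pancreatic islets, had values of 5.83 and 5.76. Slc2a12 had 5.82 and 5.55, and Slc2a7 had 5.25 and 5.61, so each crossed the floor in 1 array by a small margin. The fructose carrier Slc2a5 stayed under the floor in both, at 4.90 and 5.34.

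Among hexokinases, Hk3 alone was at least 2-fold different. Hk3, a hexokinase of myeloid cells, had a log2 value of 6.43 in B-Gal negative and 8.76 in B-Gal positive cells, a 5.04-fold higher value. Of all expressed genes, 2.01% had a difference as high or higher. Its B-Gal negative value was 0.84 above the floor. Hk2, the isoform that growth signals and hypoxia are known to induce, had a log2 value of 10.19 in both arrays, a difference of 0.00. Hkdc1 stayed under the floor in both arrays (5.36 and 5.57).

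Hk1, the widely expressed hexokinase bound to mitochondria, depended on which probe set stood for it. The rule took probe set 10414661, with log2 values of 12.41 and 12.46, a difference of 0.06. That set lists 1 GenBank entry and no RefSeq mRNA of Hk1. The other set naming Hk1 alone, 10369541, lists 2 RefSeq mRNAs of Hk1 and had values of 8.32 and 8.70, a 1.30-fold higher value in B-Gal positive cells. A further 16 probe sets named Hk1 together with the ribosomal protein gene Rpl17, and all 18 sets, the one with RefSeq mRNAs included, list that same GenBank entry. The values of the 16 ran from 11.09 to 12.98 in the B-Gal negative array and from 11.00 to 12.98 in the B-Gal positive array, and their differences from -0.14 to 0.00. Which transcript the chosen set detects was not tested, so its level is uncertain as a level of Hk1. Neither set differed by 2-fold between arrays.

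**Figure D2:**
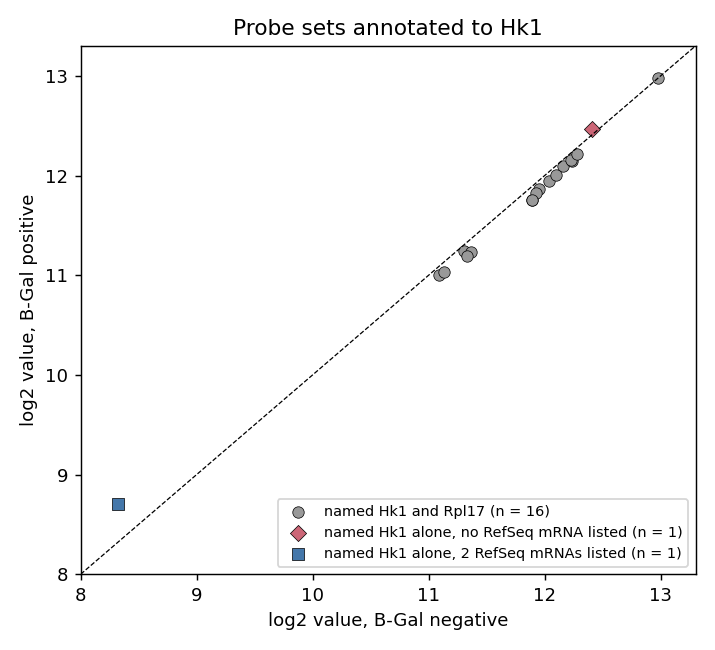
Log2 values of the 18 probe sets annotated to Hk1 in the B-Gal negative (x axis) and B-Gal positive array (y axis), with the line of equal values dashed. The diamond, chosen by the highest mean, lies at 12.41 and 12.46, the square, which lists RefSeq mRNAs of Hk1, at 8.32 and 8.70, and the 16 grey circles also name Rpl17.

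At the phosphofructokinase step the regulator Pfkfb3 differed by more than the subunits Pfkp and Pfkl. Pfkfb3, which makes the allosteric activator of phosphofructokinase, had log2 values of 9.20 and 10.40, a 2.30-fold higher value in B-Gal positive cells. A difference as high or higher was found for 7.73% of expressed genes. Pfkp, the platelet-type subunit, had values of 9.50 and 9.88 and was 1.30-fold higher. Pfkl, the liver-type subunit, had values of 8.81 and 8.87, a difference of 0.07.

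The isoforms outside the 10 genes complete this step. Pfkm, the muscle-type subunit, had values of 8.51 and 7.48 and was 2.04-fold lower in B-Gal positive cells. The bifunctional enzymes Pfkfb2 and Pfkfb4 had values of 7.26 and 7.88, and of 7.85 and 8.40, differences of 0.62 and 0.55. Of 6 expressed Pfk and Pfkfb genes, 1 was at least 2-fold higher and 1 at least 2-fold lower. That is 33.3% of the 6, against 22.6% of all expressed genes. Pfkfb1 had no probe set naming it alone.

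Pkm, which encodes the muscle-type pyruvate kinases, had log2 values of 11.02 and 11.21 and was 1.14-fold higher. Its second probe set had values of 11.00 and 11.19 and a difference of 0.19, the same to 2 decimals as that of the set used. The splice forms of Pkm were not separated by these probe sets. Pklr, the liver and red cell pyruvate kinase, had values of 4.99 and 5.60, the first below the floor and the second just above it.

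**Figure D3:**
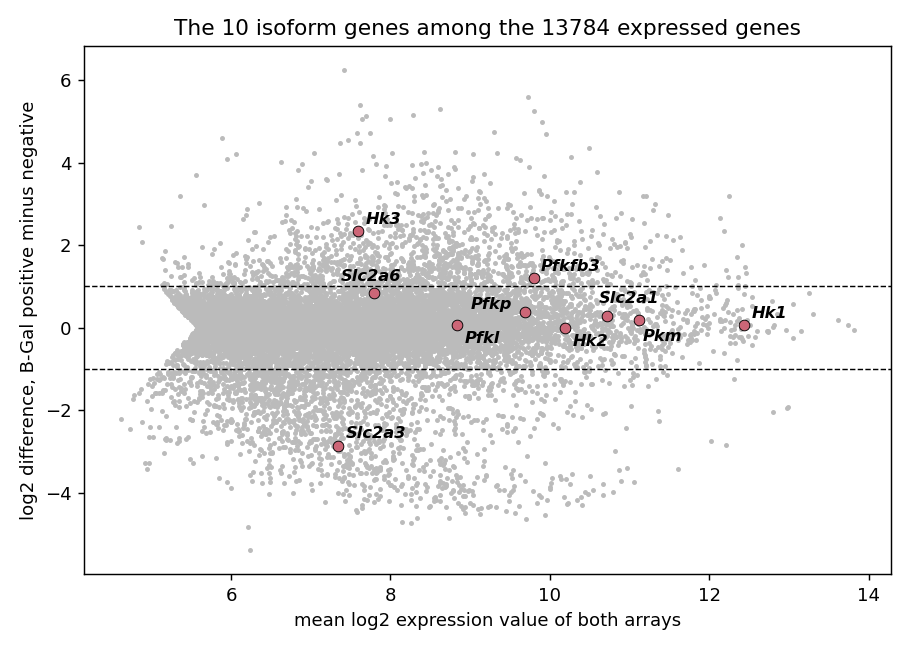
Log2 difference, B-Gal positive minus B-Gal negative (y axis), against the mean log2 value of both arrays (x axis) for 13784 expressed genes (grey) and the 10 isoform genes (named), with dashed lines at 2-fold. Hk3 at 2.33 and Pfkfb3 at 1.20 lie above the upper line, Slc2a3 at -2.86 lies below the lower line, and the other 7 lie between them.

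Cell type markers also differed between the arrays. All 16 macrophage markers were at least 2-fold higher in the B-Gal positive array, with a median difference of 3.41, and their summed linear signal was 5511 in the B-Gal negative and 60968 in the B-Gal positive array. Mrc1 was 48.5-fold and C1qc 38.1-fold higher. Cd163 and Ms4a7 lay below the floor in the B-Gal negative array and were at least 30.9-fold and at least 25.5-fold higher. All 13 fibroblast markers were at least 2-fold lower, with a median of -3.70 and summed signals of 95993 and 16058. The largest differences were those of Pdgfra (-4.32), Dpt (-4.28), Lum (-4.18) and Fbln2 (-4.17), and no fibroblast marker was under the floor in either array. Fap lay only 0.29 above the floor in the B-Gal positive array, and under the higher floor of 6.27. In bulk RNA, fewer cells of a type and less RNA per cell cannot be told apart, and the part of cell makeup in the isoform differences was not tested.

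Neutrophils also carry Slc2a3 and Hk3. Neutrophil markers (11 expressed) split on deposited values into 1 at least 2-fold higher, 5 at least 2-fold lower and 5 between, around a median of 0.43 and summed signals of 3155 and 1929. The higher one, Mmp8, was below the floor in the B-Gal negative array, and against the floor it was at least 1.56-fold higher. The 5 between were Csf3r, Mmp9, Camp, Mpo and Elane, with differences of 0.43 to 0.79. Camp, Mpo and Elane were below the floor in the B-Gal negative array. S100a9 was 10.6-fold and S100a8 6.54-fold lower, with B-Gal positive values 0.19 and 0.09 above the floor. Against the higher floor of 6.27 they were at least 7.56-fold and at least 4.34-fold lower. Cxcr2 and Retnlg, below the floor in the B-Gal positive array, were at least 4.71-fold and at least 2.53-fold lower. Ly6g, Ltf and Ngp were under the floor in both arrays. Endothelial markers were lower by at least 2-fold for 8 of 10, with summed signals of 3094 and 1045 and the largest differences in Tek (-2.75), Ramp2 (-2.43), Emcn (-2.10) and Cdh5 (-2.06). All 8 expressed mast cell markers were lower, with summed signals of 3014 and 379.2. Hdc was 8.85-fold and Tpsab1 8.30-fold lower, and Cpa3 and Mcpt4, below the floor in the B-Gal positive array, were at least 10.2-fold and at least 8.21-fold lower. Among 6 expressed keratinocyte markers 2 were lower by 2-fold or more, Krt5 by at least 2.88-fold against the floor and Krt14 by 2.17-fold. Of 5 expressed skeletal muscle markers, Myoz1 passed 2-fold on deposited values only, and against the floor it was at least 1.56-fold higher. Probe sets naming 1 gene covered 4 of 8 red cell markers, of which 2 lay above the floor and 0 differed by 2-fold. In the B-Gal positive array, Tpsab1, Tek, Emcn and Krt14 lay 0.10, 0.03, 0.18 and 0.36 above the floor. The part of these cell types in the isoform differences was not tested either.

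The other glycolytic enzymes above the floor differed by less than 2-fold between the arrays, with 1 exception. Of 20 genes listed, 4 lay under the floor and 5 had no probe set of their own, Gpi1, Eno1 and Gapdh among them. Of 11 expressed genes in this group, 1 was higher by 2-fold or more and 0 were lower by as much, around a median of 0.05. That is 9.09% of them, against 22.6% of all expressed genes. The exception was Aldoc, the brain-type aldolase, which was 3.19-fold higher in B-Gal positive cells, with a B-Gal positive value of 7.67 and a difference of 1.68. Ldha, which reduces pyruvate to lactate, had values of 11.99 and 11.97. The following were named after their values were seen. Aldoa, the main aldolase of most tissues, differed by 0.42, Tpi1 by 0.07, Pgk1 by 0.02 and Pgam1 by 0.05. Bpgm, which diverts a glycolytic intermediate, and the neuronal enolase Eno2 differed by -0.95 and -0.74.

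Lactate carriers differed more than the enzyme that makes lactate. Slc16a7, a high-affinity carrier of pyruvate and lactate, lay below the floor in the B-Gal negative array at 5.42 and had a value of 8.99 in B-Gal positive cells, at least 10.6-fold higher. Slc16a1, the carrier of most tissues, was 3.02-fold lower, from 9.85 to 8.25. Slc16a3, the carrier of glycolytic cells, had values of 9.57 and 9.38, a difference of -0.19. Pdk4, an inhibitor of pyruvate dehydrogenase, was at least 2-fold lower on deposited values (5.71 and 4.30), but against the floor only by at least 1.09-fold. Over this list of lactate and pyruvate genes, 1 of 17 expressed genes was at least 2-fold higher on deposited values. By the same measure 2 were lower, Pdk4 being 1 of them. Together they are 17.6% of the list, against 22.6% of all expressed genes. By any amount, 7 were higher and 10 lower, with a median of -0.08.

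**Figure D4:**
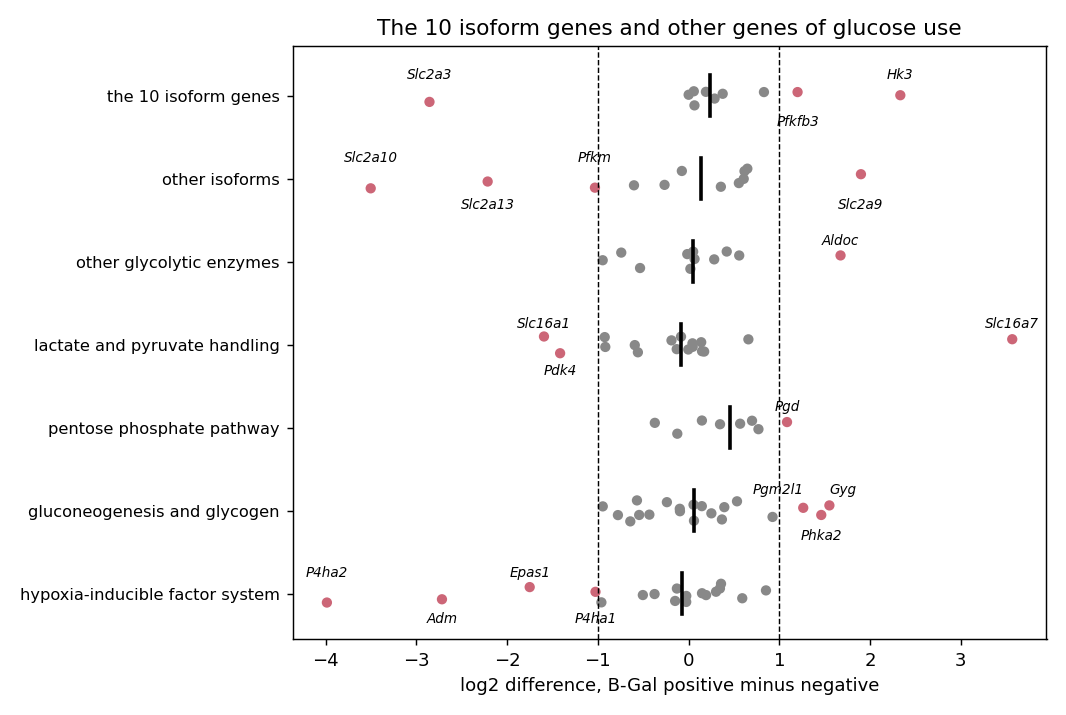
Log2 difference, B-Gal positive minus B-Gal negative (x axis), of every expressed gene in each list (y axis), with genes at least 2-fold different named and coloured, list medians as black bars and dashed lines at 2-fold. The medians lie between -0.08 and 0.46, while single genes reach from -3.99 (P4ha2) to 3.57 (Slc16a7, whose B-Gal negative value is below the floor).

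The pentose phosphate pathway draws on the glucose phosphate that hexokinases make and yields NADPH. For 6 of its 8 expressed genes the B-Gal positive value was the higher one. Of all expressed genes, 53.9% had a difference of 0.0011 or more. The median of the 8 was 0.46. Pgd, the second NADPH-forming dehydrogenase of the pathway, was the 1 gene past 2-fold, 12.5% of the 8 against 22.6% of all expressed genes. Its values were 9.85 and 10.94, a 2.12-fold higher value. H6pd and Rpe were the 2 lower ones, with differences of -0.37 and -0.12. G6pdx, also listed for this pathway, had no probe set naming it. Taldo1 (0.77) and Tkt (0.70), named after their values were seen, encode the enzymes that return sugars to glycolysis.

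Of 20 expressed genes of glycogen metabolism and gluconeogenesis, 3 were higher by 2-fold or more and 0 were lower by as much. This share of 15% stood against 22.6% of all expressed genes. The median was 0.06. Gyg, the glycogenin that primes glycogen, was 2.93-fold higher, from 7.44 to 8.99. Phka2, a regulatory subunit of phosphorylase kinase, was 2.76-fold higher, from 8.15 to 9.62. Pgm2l1, which makes glucose bisphosphate, was 2.40-fold higher, from 7.34 to 8.61. The gluconeogenic genes Fbp1 and G6pc, also named after their values were seen, were under the floor in both arrays.

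In the hypoxia-inducible factor system, 0 of 18 expressed genes were higher by 2-fold or more and 4 were lower by as much. Together that is 22.2% of the list, against 22.6% of all expressed genes. The median of the list was -0.08. Hif1a, the oxygen-regulated subunit, had values of 11.25 and 10.87, a difference of -0.37, and Epas1, its paralogue, was 3.37-fold lower, from 8.68 to 6.93. The other lower ones were the collagen prolyl hydroxylase genes P4ha2 (15.8-fold, from 10.85 to 6.86) and P4ha1 (2.04-fold, from 11.20 to 10.17) and the peptide hormone gene Adm (6.58-fold, from 9.21 to 6.49). By any amount, 7 of the 18 were higher and 11 lower. Vegfa, an angiogenic factor gene, and Ndrg1 were named after their values were seen. Vegfa had values of 9.72 and 10.57, a difference of 0.85, and Ndrg1 had 10.82 and 9.86, a difference of -0.96. Isoform genes known as hypoxia targets include Slc2a1, Slc2a3, Hk2 and Pfkfb3, which differed by 0.29, -2.86, 0.00 and 1.20. The remaining isoform genes, whether or not they are hypoxia targets, differed by 0.83 (Slc2a6), 0.06 (Hk1), 2.33 (Hk3), 0.07 (Pfkl), 0.38 (Pfkp) and 0.19 (Pkm).

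**Figure D5:**
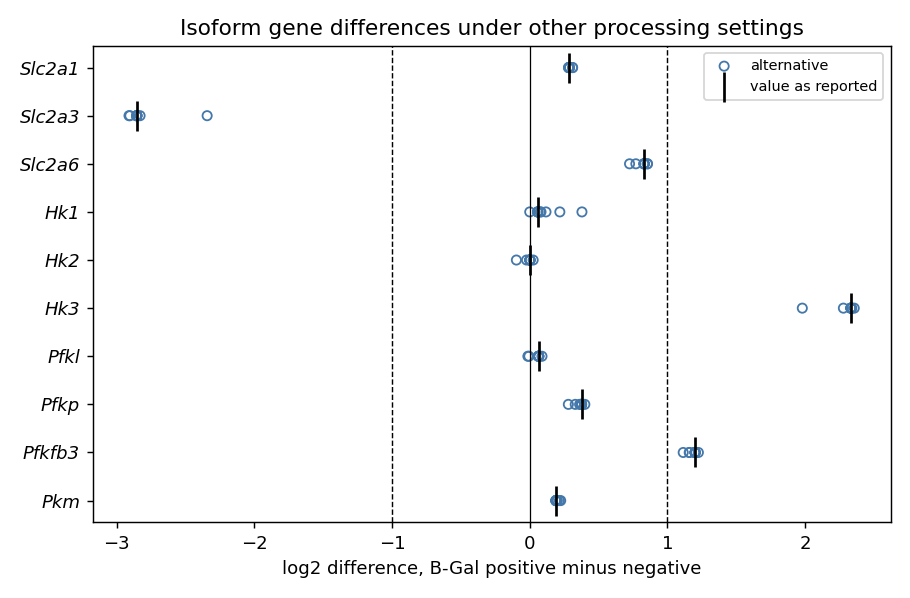
Log2 difference (x axis) of each isoform gene (y axis) as reported (black bar) and under each alternative setting (open circles), with dashed lines at 2-fold. Hk3 stays between 1.98 and 2.36, Pfkfb3 between 1.12 and 1.23, and Slc2a3 between -2.91 and -2.34, and no circle of these 3 crosses a dashed line. Only the scaling settings and the offset move the circles of these 3 genes, and the other settings return the reported value.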

How the data were processed

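The authors deposited a table of probe set values for both arrays, read here as log2 expression because they ran from 1.16 to 14.8. Partek is named in the submitters' processing notes. The labels do not state how probes were summarized, corrected for background and normalized, nor the base of the logarithm. Every fold depends on the log2 reading. Of 28853 probe sets, 21789 named 1 gene in the platform annotation, with symbols updated by gene ID through RefSeq (GRCm38.p6). Array medians were 6.18 (B-Gal negative) and 6.16 (B-Gal positive), and no scaling was added. Under the floor, values have no order, and a fold against such a value was computed from the floor and written as at least that size.

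With 1 array per group nothing was tested. The genes, the 6 pathway lists and the 8 marker lists were chosen with earlier results of these data known. Besides the 10 genes, other isoforms, genes of a list at least 2-fold different (at most 5), Hif1a, Ldha, Slc16a3 and up to 4 markers per list were named by rule. Of 108 pathway genes, 10 had no probe set of their own. The alternatives covered scaling, low values, probe set choice and fold. Python 3.11.15, pandas 2.3.3 and statsmodels 0.14.6 were used.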

Additional observations from a re-analysis of the deposited data

How the results depend on the processing

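The counts and the median of the 10 isoform genes, and the counts over all expressed genes, were recomputed with equal array medians, a loess fit (span 0.4, 3 iterations), quantile normalization, an offset of 32, values raised to the floor, a higher floor (99th percentile of the receptor genes), no filter, the mean over probe sets, probe sets naming several genes, and folds of 1.5 and 4. Probe sets listing a RefSeq mRNA only were an alternative chosen after seeing the data. The count of isoform genes moved with the fold threshold alone: at 4-fold, 1 isoform gene (Hk3) was higher, and at 1.5-fold, 3 were (with Slc2a6). Their median, 0.24 as reported, was 0.33 with RefSeq-listing probe sets. At 1.5-fold, 2585 expressed genes were higher and 2765 lower, and at 4-fold 415 and 788. Loess moved the median difference over all probe sets from 0.14 to -0.00, and the differences of Hk2 and Pfkl, both near 0, changed sign among the alternatives. The Slc2a3 difference was -2.34 with the offset. Among 286 values of single isoform genes and of other lists, 264 stayed close to the value reported and 22 moved. A difference or median counted as close if it moved by less than 0.37, the standard deviation over receptor genes. A count was close if unchanged, or if above 0 in both and changed by at most a factor of 1.5. Floor, filter and probe set settings returned the reported differences of Slc2a3, Hk3 and Pfkfb3. Each of these had 1 probe set, above the floor in both arrays. Slc2a3, Hk3 and Pfkfb3, the isoform genes at least 2-fold different as reported, kept their sign. Genes outside the 10 entered these settings only through list counts and medians. Of the lists, the median of the other isoforms, 0.14 as reported, was -0.34 with loess and -0.26 with quantile normalization. No paired analysis was possible because each group has 1 array. Signal over background limits Slc2a3, Hk3, Aldoc and the carriers and markers near the floor.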

Other observations

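Gapdh, the glycolytic dehydrogenase often used as a reference gene, had no probe set naming it alone. The 25 probe sets naming it together with other genes differed by 0.01 to 0.11 between the arrays, with a median of 0.06, and the brightest had log2 values of 13.31 and 13.39. These values cannot be assigned to Gapdh alone.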
